A study of Mus musculus with 199 samples.

Results

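The 10 genes described here are markers of lung epithelium that do not define the neuroendocrine lineage of small-cell lung cancer. Sftpc, Sftpb, Sftpa1, Sftpd, Napsa, Lamp3 and Abca3 belong to alveolar type II cells, Scgb1a1 and Wfdc2 to club and airway cells, and Nkx2-1 to the whole lung epithelium. They were taken by symbol, as 10 of the 31581 genes in the count table, and each was followed through all 199 libraries. The study profiled mouse small-cell lung cancer cells to ask how their transcripts differ between culture and liver. Groups of 10 cells were cut from frozen sections by laser, and their poly(A) RNA was amplified by PCR and sequenced. In the pool-and-split controls, material was pooled and divided again, as their name says. Both kinds are called small libraries here, and bulk libraries were made with another kit from whole cultures.

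The KP1 line is a tumour line whose genotype label is Rb1-/-Trp53-/-. It was grown as spheroids (28 10-cell libraries, 20 pools) or as colonies in the liver of nude mice (33 and 35), which lack T cells, and in the liver of F1 mice (31 and 24), which are immunocompetent. The labels give the hosts by these names, without strain or age. Any other difference between the hosts and their immune status cannot be told apart. The RPC line, labelled pre-cancerous and Rb1-/-Trp53-/-p130-/+Crebbp-/-, gave 24 10-cell libraries of spheroids and no pools. It shares the loss of Rb1 and Trp53 with KP1, so both sides of that comparison carry it. Bulk spheroid libraries numbered 1 each for KP1, for KP2 (Ptch1+/lacz in addition), for KP3 (Axin2+/lacz) and for KP5 (a BAT-GAL reporter). KP1 and RPC are each 1 line, so a difference between them is a difference between lines, and the labels do not say how many animals, cultures or pools gave the libraries. The p-values therefore speak for captures.

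Alveolar type II cells make pulmonary surfactant, a film of lipid and of surfactant proteins that keeps air spaces open. The hydrophobic proteins SFTPB and SFTPC are processed and packed with lipid into lamellar bodies, whose lipid pump is ABCA3, while SFTPA1 and SFTPD are soluble collectins of innate defence. NKX2-1 is the homeodomain factor that specifies the lung and activates surfactant and secretoglobin genes, and it is also present in neuroendocrine cells and in many small-cell lung cancers.

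Small libraries held 718208 to 7557773 gene counts and the bulk libraries 17266200 to 42447973, and levels are CPM, a gene's counts scaled to a common library total over the genes without the ERCC spike-in rows. Several differences between libraries run with the groups. ERCC counts made up at least 0.1% of the library in every liver library, in 22 of 24 RPC libraries, but in 9 of 28 spheroid 10-cell libraries and 6 of 20 spheroid pools, and they exceeded 10% in 17 of 24 F1 liver pools. The pseudogene Rpl19-ps11 reached 200 CPM in 25 of 31 F1 liver 10-cell libraries and in 1 of 33 from nude liver. Summed hepatocyte markers had a median of 897 CPM in nude liver 10-cell libraries, 186 CPM in F1 liver and 1.11 CPM in spheroids. Values within these splits stand beside the results whose call or sign they change. The neuroendocrine list was present in every 10-cell group, with summed medians from 1440 to 2084 CPM.

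The 10 genes fell into 2 groups. Nkx2-1, Abca3, Wfdc2 and Sftpc were read in most KP1 libraries, whereas Sftpb, Sftpa1, Sftpd, Napsa, Lamp3 and Scgb1a1 were at or near 0 everywhere. Nkx2-1 had counts in 195 of 195 small libraries, Abca3 in 186, Wfdc2 in 172, with 1 of 24 from RPC, and Sftpc in 98. Lamp3 had counts in 14 small libraries, Napsa in 9, Sftpb in 2 and Sftpd in 2. Sftpa1 and Scgb1a1 had 0 counts in all 195 and in the 4 bulk libraries, and a count of 0 over the small libraries allows up to 0.00399 CPM at a floor of 3 counts. These floors cover counting error only.

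**Figure D1:**
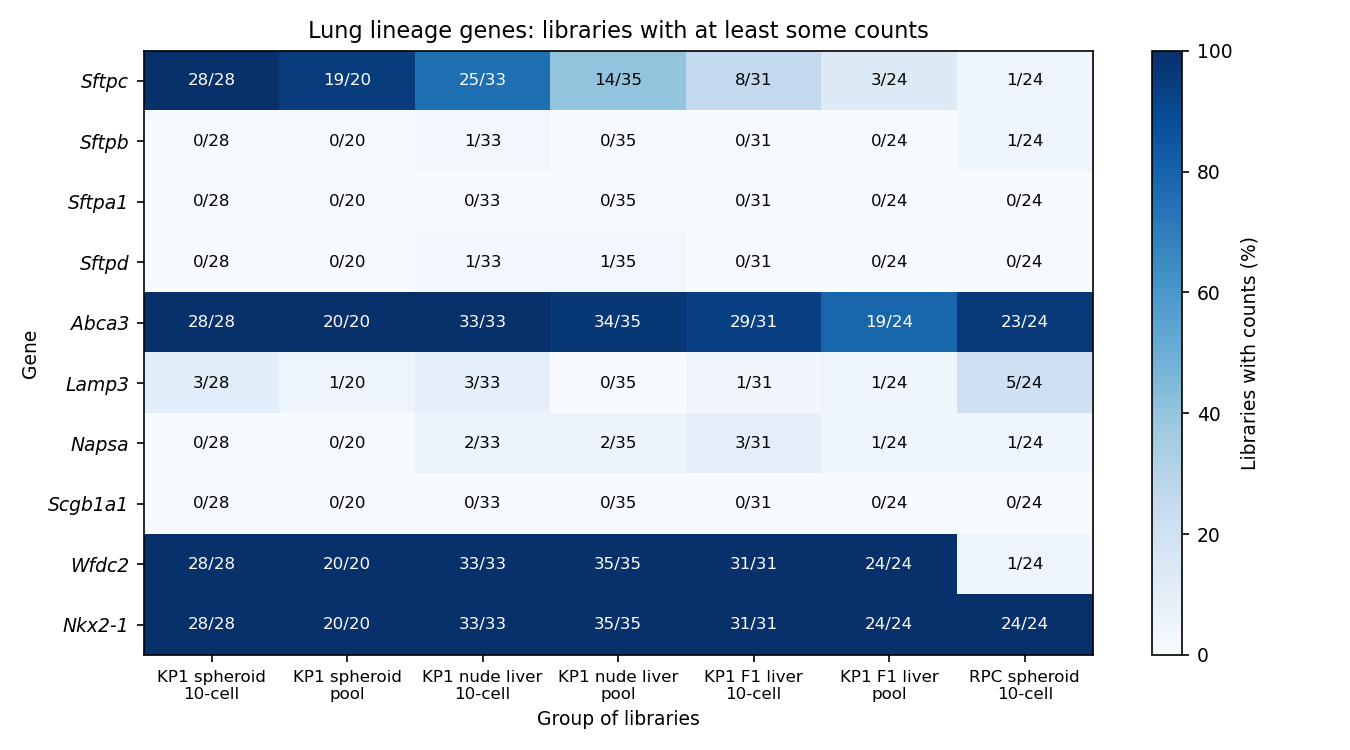
Libraries with counts of each gene over all libraries of the group, as numbers in the cells and as colour (percent of libraries), for the 10 genes (rows) in the 7 groups of small libraries (columns). Nkx2-1 fills its row, Wfdc2 fills every KP1 column and is in 1 of 24 RPC libraries, and Sftpc runs from 28 of 28 in spheroid 10-cell libraries to 3 of 24 in F1 liver pools and 1 of 24 in RPC.

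Wfdc2 (ENSMUSG00000017723, GRCm38 chr2:164562413-164568510) encodes a secreted protein with WAP-type four-disulfide-core domains made by airway and other epithelia. The 250 bases before its RefSeq start are shown with those of Sftpb and Sftpa1, because Wfdc2 was read in all KP1 libraries and the other two in almost none. Capitals mark the letters CTCAAG or CAAGTG, core letters bound by NKX2-1, on either strand, so that CTTGAG and CACTTG count as well, and the letters TATAAA on the printed strand.
Wfdc2 promoter, chr2:164562465-164562714, + strand: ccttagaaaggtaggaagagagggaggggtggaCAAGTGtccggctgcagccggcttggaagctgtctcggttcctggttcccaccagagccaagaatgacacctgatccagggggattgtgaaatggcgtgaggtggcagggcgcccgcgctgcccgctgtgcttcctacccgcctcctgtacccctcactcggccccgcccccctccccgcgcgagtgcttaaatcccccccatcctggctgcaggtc
Sftpb promoter, chr6:72304360-72304609, + strand: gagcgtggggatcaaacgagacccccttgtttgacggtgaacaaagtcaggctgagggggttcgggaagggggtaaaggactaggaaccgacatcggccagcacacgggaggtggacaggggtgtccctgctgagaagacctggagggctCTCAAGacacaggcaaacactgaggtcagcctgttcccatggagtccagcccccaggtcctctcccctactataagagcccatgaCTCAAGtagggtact
Sftpa1 promoter, chr14:41131538-41131787, + strand: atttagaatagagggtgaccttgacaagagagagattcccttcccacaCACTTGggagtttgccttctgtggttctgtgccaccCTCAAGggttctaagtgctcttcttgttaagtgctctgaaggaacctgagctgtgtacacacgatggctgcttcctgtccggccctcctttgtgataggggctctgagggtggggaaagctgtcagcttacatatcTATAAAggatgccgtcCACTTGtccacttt
The window of Wfdc2 lies inside the gene interval of the count table, whose start is further upstream. The NKX2-1 core letters occurred 1 time in the window of Wfdc2, 2 times in that of Sftpb and 3 times in that of Sftpa1. They occurred 0 times in the windows of Nkx2-1, Abca3 and Lamp3, and 22.8% of 27025 RefSeq promoters of this length on GRCm38.p6 held them. TATAAA was found 1 time, in Sftpa1 on the printed strand, while 13% of promoters held it on either strand. Of the 10 genes, 6 were in the promoter table, and Sftpc, Sftpd, Napsa and Scgb1a1 were not. A match of letters is a description and not a binding site.

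Wfdc2 was higher in liver colonies than in spheroids and almost unread in RPC. Spheroid 10-cell libraries ranged from 27.3 to 1080 CPM with a median of 374 (mean 419 ± 249, SD, n = 28). Nude liver libraries ranged from 223 to 3514 CPM with a median of 1031 (mean 1168 ± 651, n = 33), and F1 liver libraries from 159 to 2199 with a median of 692 (mean 876 ± 505, n = 31). The ranges overlapped, but 16 of 33 nude and 9 of 31 F1 libraries lay above the highest spheroid library. In bulk-like captures of this kind, more cells with a transcript and more transcript per cell cannot be told apart. Bulk spheroids, by another protocol and with 1 library each, had 33.2 CPM in KP1, 84.2 in KP2, 87.0 in KP3 and 39.3 in KP5. The KP1 bulk level was far below the mean of the KP1 spheroid 10-cell libraries and near the lowest of them.

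The increase over spheroids was 1.33 on the log2 scale (SE 0.25) in nude liver, or 2.52-fold, with an adjusted p of 1.38e-05 by edgeR's quasi-likelihood test, and 1.41 (SE 0.27, adjusted p 0.000137) in F1 liver. Pools gave the same direction, with 271 ± 155 CPM in spheroids (n = 20), 1032 ± 489 in nude liver (n = 35) and 559 ± 336 in F1 liver (n = 24). The log2 differences of the pools were 2.10 (SE 0.29, adjusted p 2.52e-08) and 1.60 (SE 0.35, adjusted p 0.0012). The median of all genes tested moved by 0.22 and 0.46 in the F1 comparisons of 10-cell libraries and pools. That shift depended on the scaling, being -0.44 and -1.45 by limma-voom and 0.20 and -0.13 by DESeq2.

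The spheroid libraries did not have 1 level of Wfdc2. Those with at least 0.1% ERCC, which is what every liver library had, averaged 541 ± 291 CPM (n = 9), against 361 ± 211 in the others (n = 19), and the pools 407 ± 185 (n = 6) against 212 ± 98.8 (n = 14). Against the 9 libraries alone the difference was 0.79 (SE 0.34, adjusted p 0.0888) for nude liver and 0.98 (SE 0.40, adjusted p 0.225) for F1 liver, so the direction held and the call did not. Against the 6 pools it was 1.28 (adjusted p 0.0558) and 0.76 (adjusted p 0.723). With the mean log2(CPM + 1) of the 12 hepatocyte markers as a covariate, the nude liver difference was 0.48 (SE 0.47, adjusted p 0.584). That covariate ran with the group, liver against spheroid, so a lost call there cannot show a part of hepatocytes. With the 6 F1 libraries under 200 CPM of Rpl19-ps11, the F1 liver difference was 0.50 (SE 0.42, adjusted p 0.551). The part of these library differences in the result was not tested.

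Bile duct cells are the other epithelium of the liver. Of 8 of their markers, Krt19 and Cftr had 0 counts in every nude and F1 liver library. The summed list had a median of 11.0 CPM in nude and 74.7 CPM in F1 liver 10-cell libraries, against 55.4 CPM in spheroids, with Krt7 the highest in each. The other markers of the list did not move together. Epcam, an epithelial adhesion protein, was higher in F1 than in nude liver 10-cell libraries (28.3 against 3.11 CPM, log2 difference 3.56, SE 0.73, adjusted p 0.000184), with 3.21 CPM in spheroids, while its mean in F1 pools was 11.6 CPM against 15.2 CPM in spheroid pools. Krt7 averaged 60.7 CPM in F1 liver against 84.6 in spheroid 10-cell libraries, and 38.7 against 124 CPM in pools. Spp1, a secreted phosphoprotein, averaged 26.1 CPM in F1 liver 10-cell libraries (counts in 6 of 31) and 89.8 CPM in F1 pools (15 of 24), against 5.43 and 0.155 CPM in spheroid 10-cell libraries and pools. The part of bile duct cells in the Wfdc2 values was not tested.

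In RPC, 1 count of Wfdc2 was found in 24 libraries, where KP1 spheroids had 51632 counts in 28. The 2 groups did not overlap, and the share of all genes without such overlap was not computed. The ratio of summed rates was 52167, with a 95% counting interval from 9362 to 2060510. Such intervals treat PCR-amplified reads as independent, cover counting error only and leave out the spread between libraries. The edgeR log2 difference was -13.87 (SE 0.46, adjusted p 7.89e-36), a value that depends on the prior count. It was called under each of the 12 alternatives run, with log2 values from -14.43 to -8.37.

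Between the 2 livers the mean was lower in F1, but the edgeR difference was 0.10 (SE 0.24, 95% interval -0.37 to 0.56, adjusted p 0.82). The pools gave -0.44 (SE 0.28, interval -0.98 to 0.11, adjusted p 0.305). A permutation test of mean log2(CPM + 1) gave -0.45 (adjusted p 0.0444 over 28 tests) in 10-cell libraries, where the median gene, among those averaging 5 CPM or more, moved by -0.36. In pools the same test gave -1.03 (SE 0.31, adjusted p 0.00159), with a median gene at -0.31. In the order of means, nude liver, nude pools, F1 liver, F1 pools, spheroids, spheroid pools and RPC, the liver groups stood above the spheroids. Nude and F1 liver were not separated by edgeR and were separated by the permutation test, in pools by more than the median gene.

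**Figure D2:**
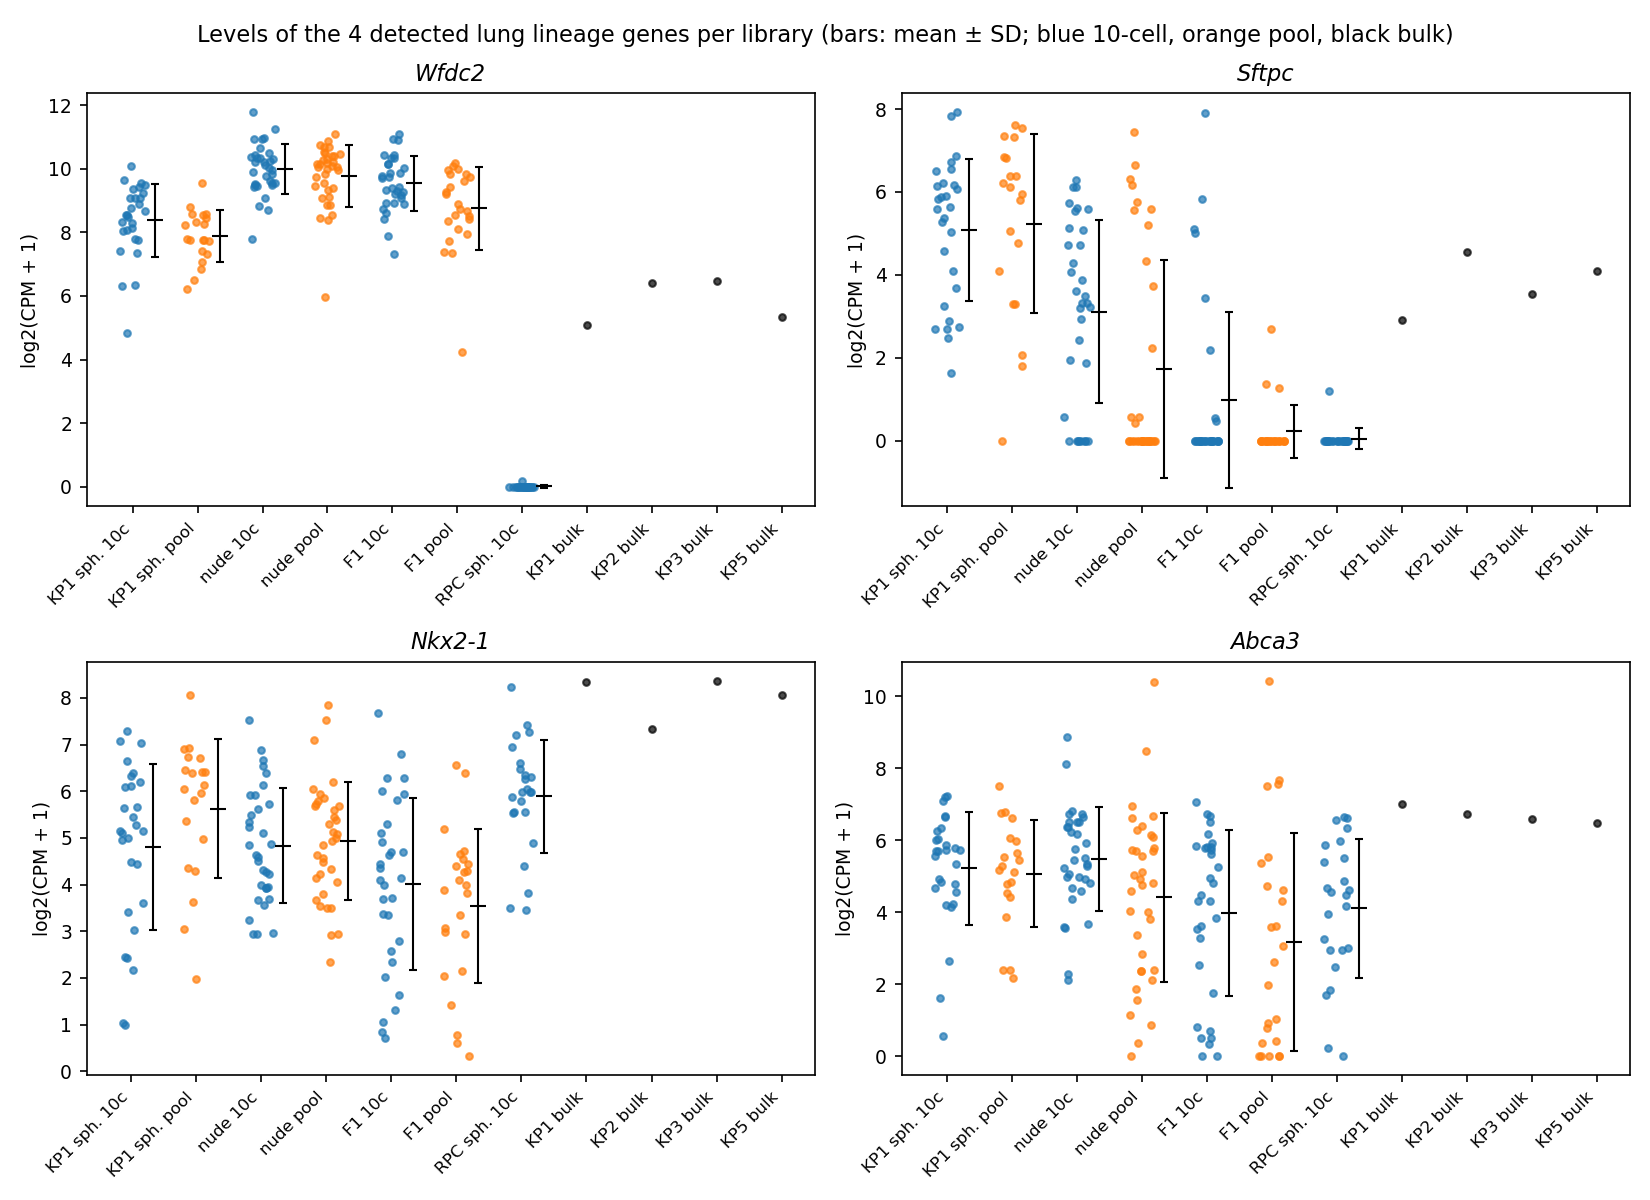
Level of the 4 detected genes in every library as log2(CPM + 1) (y axis) by group (x axis). Points are libraries, blue for 10-cell, orange for pools and black for single bulk libraries, and bars give the mean ± SD. Wfdc2 sits higher in liver than in spheroids and near 0 in RPC, and Nkx2-1 and Abca3 overlap across groups. Sftpc is at 0 in part of the libraries of each liver group and runs upward from just above 0 in the others.

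The gene whose pattern over the 7 groups was most like that of Wfdc2 was Ctsz, a lysosomal cysteine protease, with a root mean square difference of 0.51 on the log2 scale among 9932 genes searched. Its mean was 628 CPM in spheroid 10-cell libraries, 2384 in nude liver, 1963 in F1 liver and 21.2 in RPC. The next was Bmp8b, a growth factor of the BMP family, at 1.08, against a range of 9.99 for Wfdc2 itself.

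Of the other WAP-domain genes, 7 of 8 listed were in the table, and 1, Wfdc12, was tested in 10-cell libraries. Its mean was 26.1 CPM in F1 liver 10-cell libraries (counts in 26 of 31), 1.64 in spheroids (4 of 28) and 1.68 in nude liver (8 of 33). Wfdc12 could pass the filter only through the F1 liver libraries, so its calls below are no test of it. It rose by 4.16 over spheroids (SE 0.96, adjusted p 0.00174) and by 4.25 over nude liver (SE 0.84, adjusted p 0.000103), while against the 9 spheroid libraries with at least 0.1% ERCC the difference was 3.59 (SE 1.44, adjusted p 0.215). With the 6 F1 libraries under 200 CPM of Rpl19-ps11, 0 WAP-domain genes were called against spheroids or against nude liver.

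Sftpc (ENSMUSG00000022097, chr14:70520941-70524081) encodes surfactant protein C, the most restricted marker of alveolar type II cells. It was read in 28 of 28 spheroid 10-cell libraries and in fewer liver libraries. Spheroids ranged from 2.08 to 242 CPM with a median of 47.9 (mean 57.9 ± 59.99, SD). Nude liver had counts in 25 of 33 libraries, with a median of 8.99 and a highest value of 77.5 CPM (mean 19.6 ± 23.0).

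F1 liver had counts in 8 of 31 libraries, a median of 0 and a highest value of 237 CPM (mean 12.0 ± 43.6). Replicate 22 of this group held 63.8% of the summed level, and without it the mean was 4.49 CPM. All 28 spheroid libraries were above 0, while 25 of 31 F1 and 9 of 33 nude libraries lay below the lowest spheroid library.

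Sftpc fell by 1.81 on the log2 scale in nude liver (SE 0.55, adjusted p 0.00778, edgeR). In F1 liver the edgeR difference was -1.68 (SE 0.85, adjusted p 0.191), and without replicate 22 it was -3.53 (SE 0.84, adjusted p 0.00246), so that 1 library decided the call. On log2(CPM + 1), where single high libraries weigh less, the permutation test gave a difference of -1.97 (SE 0.50, adjusted p 0.000916) for nude and -4.10 (SE 0.50, adjusted p 8e-05, from the smallest p the resampling can give) for F1 liver. On that scale the median gene, among those averaging 5 CPM or more, moved by -0.05 and -0.44. Over all 16 alternatives for F1 liver, the adjusted p ran from 2.09e-11 to 0.808.

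In F1 liver the 8 libraries with Sftpc were among the 25 with at least 200 CPM of Rpl19-ps11 (mean 14.9 ± 48.3 CPM), and 0 of the 6 others had counts. With those 6 alone the difference from spheroids was -11.04 (SE 1.54, adjusted p 1.72e-05), a fitted value against a group at 0 and no bound. The split of the spheroids bore on Sftpc as well. Its mean was 33.9 ± 33.5 CPM in the 9 spheroid libraries with at least 0.1% ERCC and 69.3 ± 66.9 in the other 19, and counts were present in every one of both. Against the 9 libraries, the nude liver difference was -1.21 (SE 0.84, adjusted p 0.336). With the hepatocyte covariate it was -2.23 (SE 1.23, adjusted p 0.257). The part of these in the result was not tested.

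Pools repeated the order. Sftpc had counts in 19 of 20 spheroid pools (mean 72.3 ± 63.6 CPM), in 14 of 35 nude liver pools (18.3 ± 37.7, highest 174) and in 3 of 24 F1 liver pools (0.351 ± 1.16, highest 5.41). The log2 difference from spheroid pools was -1.70 (SE 0.89, adjusted p 0.164) in nude liver and -7.17 (SE 1.00, adjusted p 5.87e-07) in F1 liver, which was called in each of the 16 alternatives. The permutation test gave -3.51 (adjusted p 8e-05) for nude liver pools, where the median gene moved by -0.92. The highest floor of 3 counts in any liver library was 4.18 CPM. That is below the medians of spheroid 10-cell libraries and pools, 47.9 and 64.6 CPM, and above the lowest spheroid 10-cell library at 2.08 CPM.

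Between F1 and nude liver the value depended on the fit. The 10-cell difference was 0.21 with replicate 22 (SE 0.87, adjusted p 0.897) and -1.73 without it (SE 0.84, adjusted p 0.141). It was -3.53 by limma-voom (adjusted p 0.000271), -5.14 with the replicate block (adjusted p 0.0015) and -8.76 with the 6 F1 libraries that had 0 counts (adjusted p 0.0121). The permutation test on log2(CPM + 1) gave -2.13 (SE 0.54, adjusted p 0.000896), with a median gene at -0.36. For the pools, where Sftpc did not pass the filter on low counts, the permutation test gave -1.51 (SE 0.46, adjusted p 0.0101), with a median gene at -0.31.

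In RPC, 7 counts of Sftpc came from 1 of 24 libraries. The highest level was 1.29 CPM, and the lowest of the 28 KP1 spheroid 10-cell libraries had 2.08 CPM. The ratio of summed rates, KP1 over RPC, was 1046, with a 95% counting interval from 507 to 2602 that leaves out the spread between libraries, and the edgeR log2 difference was -9.87 (SE 0.72, adjusted p 2.84e-18). KP1 bulk spheroids had 6.49 CPM, KP2 22.3, KP3 10.6 and KP5 16.0, so the transcript was read in all 4 tumour lines, by another protocol and with 1 library each.

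**Figure D3:**
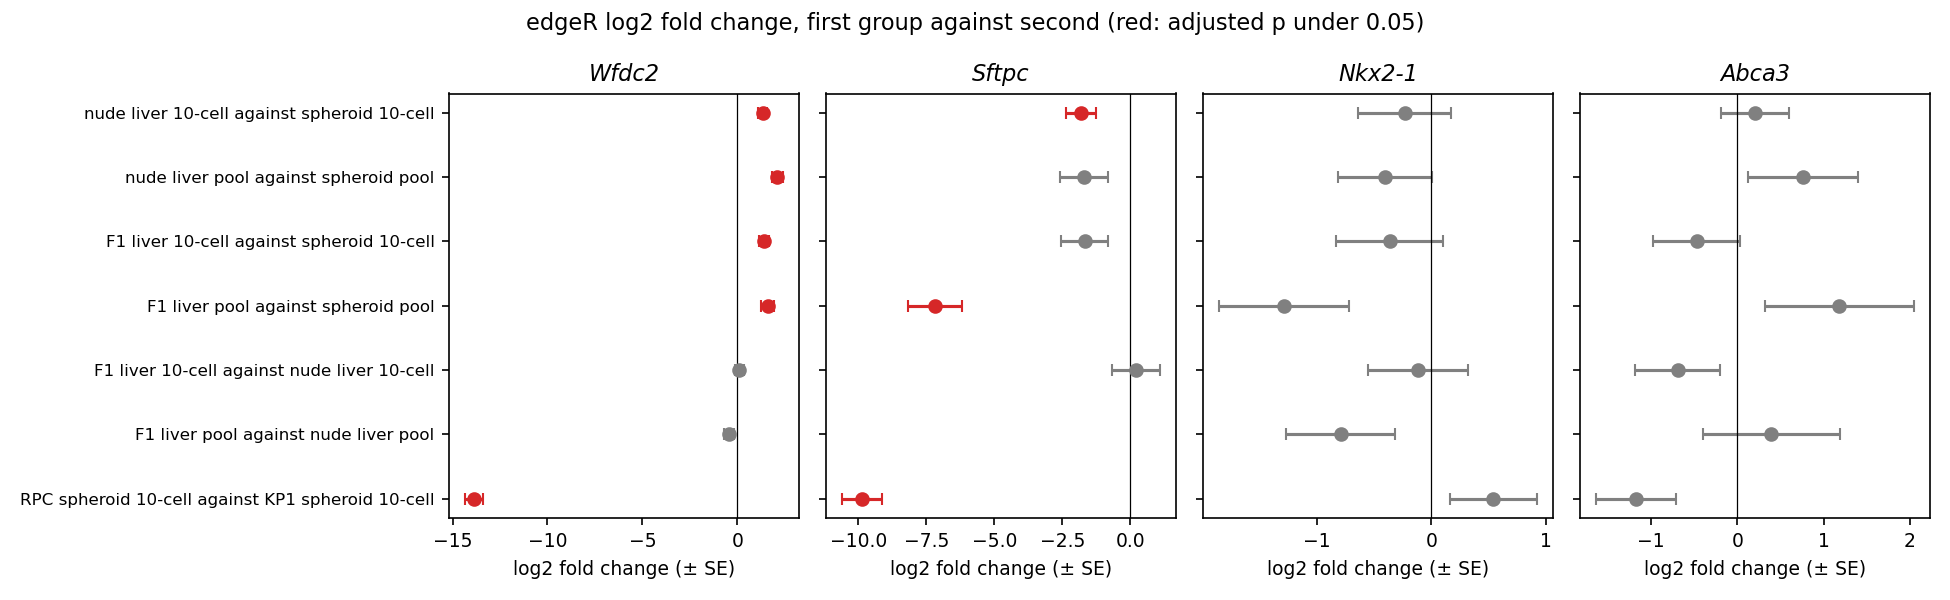
edgeR log2 fold change ± SE (x axis, a separate scale for each gene) of the 4 tested genes in the 7 comparisons (y axis), red where the adjusted p was under 0.05. Wfdc2 is red in 5 comparisons and Sftpc in 3, Nkx2-1 and Abca3 in 0, and Sftpc was not tested between the liver pools.

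The other surfactant proteins did not accompany Sftpc. Sftpb (chr6:72304610-72314371) had 4 counts in 1 nude liver library, 1 count in 1 RPC library and 0 counts in the 28 spheroid 10-cell libraries and the 20 spheroid pools, which had Sftpc in 28 and 19. Sftpd (chr14:41172214-41185149) had 7 counts in 1 nude liver 10-cell library and 16 in 1 nude liver pool, that is 5.86 and 7.77 CPM. Sftpa1 (chr14:41131782-41136452) had none. Each bulk line had at most 3 counts of Sftpb and at most 1 of Sftpd.

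The remaining genes of lamellar bodies and of surfactant processing were split. Napsa (chr7:44572380-44586862), the aspartic protease that processes SFTPB and SFTPC, had counts in 0 of 28 spheroid 10-cell libraries, 0 of 20 spheroid pools, 2 of 33 nude liver and 3 of 31 F1 liver 10-cell libraries. Its highest level was 3.47 CPM, in F1 liver, from 18 counts. Lamp3 (chr16:19653381-19706365), a membrane protein of lamellar bodies that mature dendritic cells also make, was most often read in RPC, in 5 of 24 libraries, with 15.1 of its 19.3 estimated counts in 1 library. It had counts in 3 of 28 spheroid and 3 of 33 nude liver 10-cell libraries, and the dendritic cell marker Ccr7 was at 0 in all small groups but 1 F1 liver 10-cell library. The list of 12 dendritic cell and macrophage markers to which Ccr7 belongs had summed medians of 87.3 CPM in nude and 73.5 CPM in F1 liver 10-cell libraries against 17.4 CPM in spheroids. Of the 12, 1, Fscn1, an actin-bundling protein, was tested against spheroids, and it rose in nude liver (1.23, SE 0.42, adjusted p 0.0164) and was not called in F1 liver (0.43, adjusted p 0.566). Cd74, the class II invariant chain, averaged 66.4 CPM in F1 liver, against 24.6 in nude liver (1.98, adjusted p 0.118). The part of these cells in the Lamp3 counts was not tested. Neither Napsa nor Lamp3 passed the filter on low counts, nor did Sftpb, Sftpd and Sftpa1.

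Abca3 (ENSMUSG00000024130, chr17:24351950-24410201), the lipid transporter of lamellar bodies, was read in nearly every library and in no pattern of the surfactant proteins. Spheroid 10-cell libraries ranged from 0.471 to 149 CPM with a median of 50.8 (mean 53.9 ± 41.4). Nude liver ranged from 3.35 to 467 with a median of 42.8 (mean 70.2 ± 87.9), F1 liver from 0 to 133 with a median of 21.4 (mean 35.1 ± 36.3), and RPC from 0 to 98.4 with a median of 22.0 (mean 31.8 ± 32.5). The ranges of all 4 groups overlapped.

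No comparison called Abca3 by edgeR. The differences from spheroids were 0.21 in nude liver (SE 0.39, 95% interval -0.56 to 0.97, adjusted p 0.719), -0.47 in F1 liver (SE 0.51, interval -1.47 to 0.52, adjusted p 0.597) and -1.17 in RPC (SE 0.46, interval -2.08 to -0.26, adjusted p 0.0594). The RPC value was called in 5 of 12 alternatives, among them the fit without RPC replicate 6 (adjusted p 0.0454), with a range of adjusted p from 0.0278 to 0.167. On log2(CPM + 1), F1 liver was lower than nude liver by a permutation test (difference -1.50, SE 0.49, adjusted p 0.00548), with a median gene at -0.36, where edgeR gave -0.69 (adjusted p 0.34). The same test gave -1.24 for F1 liver against spheroid 10-cell libraries (SE 0.51, adjusted p 0.0298, median gene -0.44) and -1.90 for the pools (SE 0.70, adjusted p 0.0231, median gene -1.31).

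Pools of Abca3 were set by single libraries. The mean was 49.7 ± 44.8 CPM in spheroid, 80.8 ± 230 in nude liver and 89.6 ± 282 in F1 liver pools, with highest libraries of 183, 1349 and 1383 CPM, while the medians ran the other way at 36.7, 27.0 and 6.24. Without F1 pool replicate 10 the F1 difference from spheroid pools went from 1.18 to 0.02 (adjusted p 0.993), and without nude pool replicate 21 the nude difference went from 0.76 to 0.09 (adjusted p 0.928). F1 pools with at least 200 CPM of Rpl19-ps11 averaged 132 ± 341 CPM (n = 16) and the others 4.93 ± 7.02 (n = 8). With the latter alone the F1 difference was -3.11 from spheroid pools (SE 1.02, adjusted p 0.0284) and -3.82 from nude pools (SE 1.33, adjusted p 0.081). KP1, KP2, KP3 and KP5 bulk spheroids had 127, 106, 95.1 and 88.5 CPM. Nkx2-1 and Abca3, like Napsa, overlap antisense or small RNA genes in GENCODE M21, and whether the counting used strand is not given in the sources used here, so reads from the 2 strands cannot be told apart.

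Scgb1a1 (chr19:9083636-9087958), the secretoglobin that defines club cells, had 0 counts in every library. Of 10 other club cell genes, 0 passed the filter on low counts in liver or RPC against spheroid 10-cell libraries, and 1, Hp, passed between the 2 livers (log2 difference -2.38, SE 1.00, adjusted p 0.0825). In pools it averaged 192 CPM in nude liver, with 0 counts in 20 spheroid pools, and was lower in F1 than in nude liver (3.77 against 192 CPM, adjusted p 5.24e-06). Hp is also an abundant hepatocyte transcript. Its mean was 189 CPM in nude liver and 32.7 CPM in F1 liver 10-cell libraries, where the hepatocyte list was raised too. Summed over the list, spheroid 10-cell libraries had a median of 0 CPM.

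Nkx2-1 (ENSMUSG00000001496, chr12:56531958-56536908) had counts in every library. Spheroid 10-cell libraries ranged from 0.983 to 155 CPM with a median of 34.3 (mean 46.9 ± 42.7, SD). Nude liver ranged from 6.69 to 183 with a median of 23.9 (mean 39.97 ± 38.9), F1 liver from 0.647 to 202 with a median of 16.7 (mean 31.4 ± 41.8), and RPC from 9.93 to 298 with a median of 62.0 (mean 78.9 ± 64.0). All ranges overlapped, and RPC had the highest mean of the small groups while lacking Wfdc2 and Sftpc.

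The edgeR differences of Nkx2-1 were not called. They were -0.23 in nude liver (SE 0.40, interval -1.02 to 0.56, adjusted p 0.689), -0.36 in F1 liver (SE 0.47, interval -1.28 to 0.56, adjusted p 0.668) and 0.54 in RPC (SE 0.38, interval -0.21 to 1.29, adjusted p 0.33). A permutation test on log2(CPM + 1) gave 1.09 for RPC (SE 0.42, adjusted p 0.0231), with a median gene at 0.49. In F1 pools the mean was 19.1 ± 23.1 CPM, against 71.6 ± 58.9 in spheroid pools, and the edgeR difference of -1.29 (SE 0.57, adjusted p 0.134) was called by DESeq2 (-1.43, adjusted p 0.0166) and by limma-voom (-1.74, adjusted p 0.0133). Its adjusted p over 16 alternatives ran from 0.000498 to 0.907. Between the livers edgeR gave -0.12 (SE 0.44, adjusted p 0.887) in 10-cell libraries and -0.79 (SE 0.48, adjusted p 0.275) in pools, and the permutation test -0.82 (adjusted p 0.0502, median gene -0.36) and -1.40 (adjusted p 0.00121, median gene -0.31).

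Nkx2-1 was the member that separated most by the ERCC share of the spheroids. Its mean was 21.6 ± 24.0 CPM in the 9 spheroid 10-cell libraries with at least 0.1% ERCC and 58.8 ± 44.7 in the other 19. In pools it was 15.0 ± 9.96 against 95.9 ± 54.1, with 30.6 CPM the highest of the first set and 40.3 the lowest of the second. Against the first set the nude liver differences were 0.60 (adjusted p 0.564) and, in pools, 1.39 (adjusted p 0.33), so their sign turned. In F1 liver 10-cell libraries the mean was 23.8 ± 26.9 CPM in the 25 with at least 200 CPM of Rpl19-ps11 and 63.4 ± 74.0 in the other 6. With those 6 the differences were 0.31 from spheroids (adjusted p 0.87) and 0.68 from nude liver (adjusted p 0.587), again with the sign turned. Bulk spheroids had 324 CPM in KP1, 161 in KP2, 329 in KP3 and 266 in KP5.

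**Figure D4:**
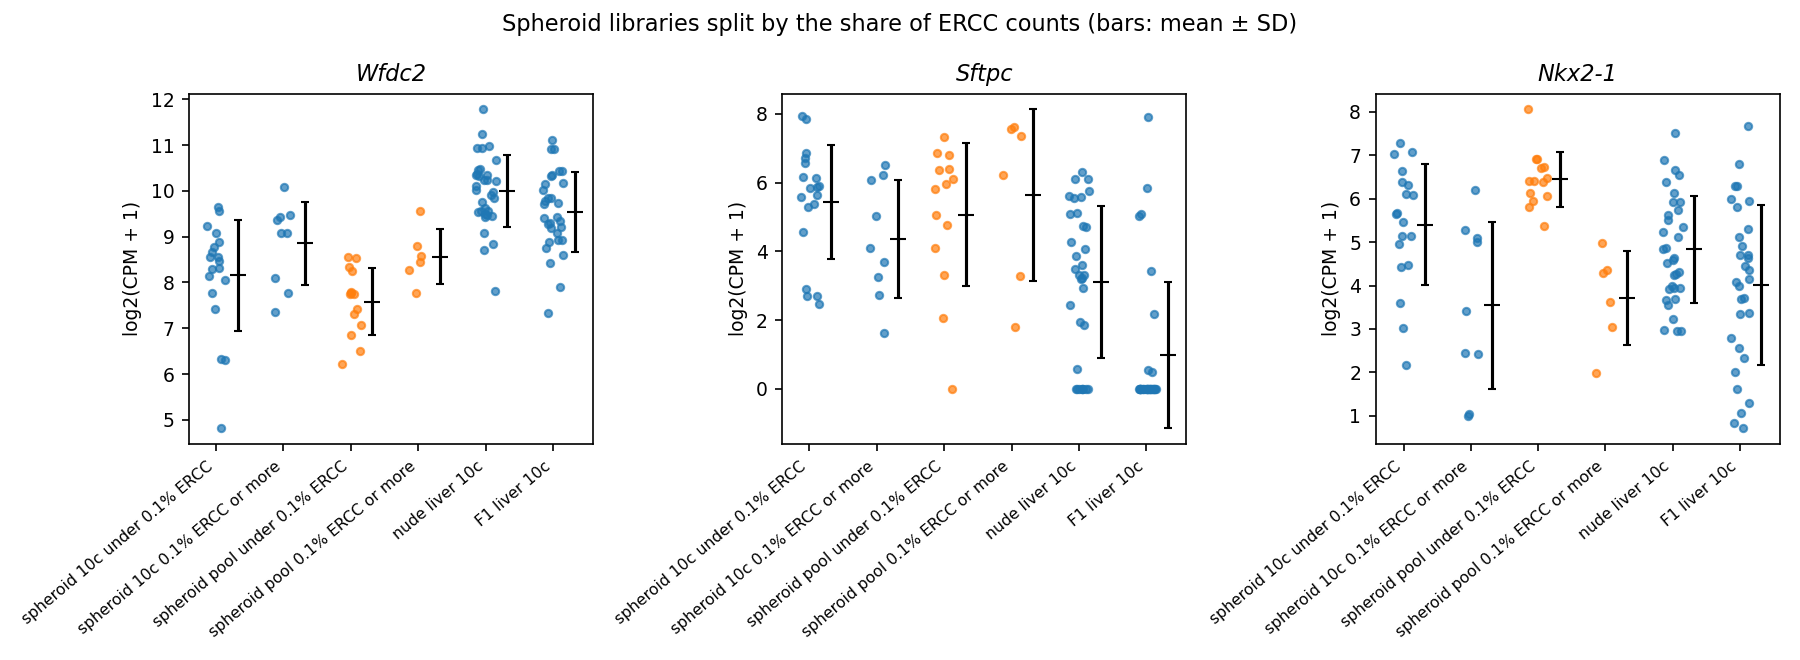
Levels as log2(CPM + 1) (y axis) of Wfdc2, Sftpc and Nkx2-1 in spheroid libraries under 0.1% ERCC and with 0.1% or more, beside the liver 10-cell libraries (x axis), with mean ± SD bars. Wfdc2 averaged 541 CPM in the 9 spheroid 10-cell libraries with more ERCC and 361 in the 19 with less, and Nkx2-1 averaged 21.6 and 58.8 CPM.

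The genes most like Nkx2-1 over the 7 group means of log2(CPM + 1) were Rc3h1, an RNA-binding ubiquitin ligase, Appl1, an endosomal adaptor, and Bcat1, a cytosolic aminotransferase of branched-chain amino acids. Their root mean square differences were 0.15, 0.16 and 0.17, against a range of 2.36 for Nkx2-1. Plain means in CPM did not follow this likeness in every group. Rc3h1 averaged 191 CPM in nude liver pools and 2.86 to 14.4 CPM in the other groups, and Appl1 averaged 40.4 CPM in F1 liver and 22.2 CPM in spheroid 10-cell libraries.

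Counts of called members are to be read against all genes. The edgeR test called 2 of the 4 tested members in nude against spheroid 10-cell libraries, where it called 34.1% of all genes (17.7% higher and 16.3% lower in liver), and 1 of 4 in F1 against spheroid, where it called 12.6% (7.73% and 4.91%). It called 0 of 4 between the livers, where 19.2% of genes were called (11.2% higher and 7.98% lower in F1). At an unadjusted p under 0.05 the count there was 0, and DESeq2 called 0 and limma-voom 2. In RPC against KP1 it called 2 of 4, with 21.9% of all genes (10.3% higher and 11.6% lower in RPC). For pools the counts were 1 of 4 in nude liver (25.6% of genes, 16.5% higher and 9.13% lower), 2 of 4 in F1 liver (11.6%, 8.94% higher and 2.65% lower) and 0 of 3 between the livers (12%, 8.2% higher and 3.79% lower in F1), again with 0 at an unadjusted p under 0.05 and 0 by DESeq2 and limma-voom. Members that passed the filter did so through the groups in which they are read, so these counts are no test of the list.

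The pools also measured the spread of the method. For none of the 4 members was the spread of log2(CPM + 1) between 10-cell libraries called different from that between pools by limma. The test called 0% of genes in spheroids (0 of 8600, with 510 at an unadjusted p under 0.05), 0.766% in nude liver (0.553% more and 0.213% less variable in 10-cell libraries) and 1.48% in F1 liver (0.537% and 0.947%). The coefficient of variation of Sftpc was 1.04 in spheroid 10-cell libraries and 0.879 in pools, 1.18 and 2.06 in nude liver, and 3.64 and 3.30 in F1 liver. For Wfdc2 the coefficient was 0.474 to 0.601 in the 6 KP1 groups.

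The fit over 10-cell libraries and pools together asked whether both gave the same liver difference. For nude liver it called 0 of 4 members (1.94% of genes, 1.34% with a higher and 0.602% with a lower difference in 10-cell libraries), with 1 at an unadjusted p under 0.05. For F1 liver it called 1 of 4, Sftpc (4.06% of genes, 2% higher and 2.05% lower), whose difference was smaller in 10-cell libraries than in pools by 5.62 on the log2 scale (SE 1.30, adjusted p 0.00406). Without replicate 22 of the F1 10-cell libraries this became 3.70 (SE 1.17, adjusted p 0.0509).

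Other genes of the lung lineages gave the context of these members. Of 10 further alveolar type II genes, 1, the surfactant lipid enzyme Lpcat1, passed the filter in 10-cell libraries. Its means were 33.9 CPM in spheroids, 53.6 in nude liver, 43.0 in F1 liver and 72.2 in RPC, and it was called in no comparison (RPC log2 difference 0.88, SE 0.40, adjusted p 0.109). In alveolar type I and in basal and goblet lists, 0 of 10 genes each passed in the 10-cell comparisons. The ciliated list was carried by Tubb4b, a tubulin that dividing cells also use, at 1343 CPM in spheroids and 420 in RPC.

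The transcription factors that act with NKX2-1 in the lung moved in both directions. Of 13 listed, 7 were tested in nude liver, where 3 rose and 3 fell (17.7% and 16.3% of all genes), with a median difference of 0.53 over the 7 against -0.04 over all genes. Foxp1, a forkhead repressor, rose from 65.3 CPM in spheroids to 269 (log2 difference 1.95, SE 0.28, adjusted p 3.59e-08), and Foxp2 from 4.18 to 49.2 (3.78, SE 0.69, adjusted p 8.14e-06). Nfib, a factor of lung maturation that is also amplified in small-cell lung cancer, rose by 0.53 (SE 0.17, adjusted p 0.013). The pioneer factors Foxa1 and Foxa2 fell by 1.40 (adjusted p 0.00445) and 1.56 (adjusted p 0.00796), and Id2, an inhibitor of helix-loop-helix factors, fell by 2.72 (adjusted p 1.62e-06).

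Against the 9 spheroid libraries with at least 0.1% ERCC, Foxp1 (2.26, adjusted p 0.000157), Foxp2 (3.06, adjusted p 0.0496) and Id2 (-2.99, adjusted p 0.000824) were still called, and Foxa1, Foxa2 and Nfib were not. Sox9, a factor of distal lung progenitors, was tested there in addition and was called higher (5.20, SE 1.62, adjusted p 0.0179). It averaged 18.3 ± 70.8 CPM in nude liver (counts in 27 of 33) and 0.723 CPM in the 28 spheroid 10-cell libraries. Sox9 did not pass the filter in the main fit and passed here through nude liver, so this call is no test of it. With the hepatocyte covariate, which ran with the group, 2 of 7 tested factors were called higher and 0 lower in nude liver. Foxa1, Foxa2 and Id2 all lost their call in that fit. In F1 liver, of 7 tested, Nfib (0.72, adjusted p 0.00383) and Foxp1 (1.30, adjusted p 0.00878) rose and Id2 fell (-2.70, adjusted p 4.33e-05). Of all genes, 7.73% rose and 4.91% fell there. Against the 9 libraries Id2 alone was called. In nude liver pools, 3 of 7 tested factors were called higher and 2 lower than in spheroid pools (16.5% and 9.13% of all genes). F1 liver pools gave 2 of 6 higher and 0 lower (8.94% and 2.65%), so the fall of Id2 was not called there. The hepatocyte covariate left 0 higher and 1 lower in F1 liver, and the 6 F1 libraries under 200 CPM of Rpl19-ps11 gave 0 of 8 in either direction. Foxp2 differed between the livers, being lower in F1 by 3.51 (SE 0.63, adjusted p 2.03e-05), and Foxa1 was higher in F1 by 1.61 (SE 0.51, adjusted p 0.0176). With the 6 F1 libraries under 200 CPM of Rpl19-ps11, 0 of 8 tested factors were called between the livers, and limma-voom and the replicate block called 0 higher, so that the call of Foxa1 was lost in all 3 of these fits. In pools neither was called, with -0.17 for Foxa1 (SE 0.73, adjusted p 0.909) and -1.73 for Foxp2 (SE 0.67, adjusted p 0.0739).

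In RPC, of 6 tested, 4 fell and 0 rose (11.6% and 10.3% of all genes), with a median of -1.97 over the 6 against 0.01 over all genes. Foxa2 fell by 3.11 (SE 0.44, adjusted p 7.91e-08). Nfib fell from 606 CPM in KP1 to 171 in RPC (adjusted p 6.09e-11), Foxp1 from 65.3 to 20.7 (adjusted p 5.86e-05) and Id2 from 20.7 to 4.05 (adjusted p 1.59e-05). The count of higher calls depended on the fit, being 2 with no filter or with a filter at a mean of 5 CPM and 1 by limma-voom and with the replicate block. All 4 were also called against the 9 KP1 libraries with at least 0.1% ERCC. Foxa1 had 77.9 CPM in RPC and 82.1 in KP1 (difference -0.39, SE 0.30, adjusted p 0.382), and with Nkx2-1 it was among the lung factors read in both lines.

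Markers of other cells moved with the liver groups. Alb averaged 369 CPM in nude liver 10-cell libraries and had 0 counts in spheroids, and the summed list of 12 hepatocyte markers ran from 33.4 to 4733 CPM there, from 0 to 2152 in F1 liver and from 0 to 83.6 in spheroids. Of 6 erythrocyte markers Hbb-bs was the highest in F1 liver, at a mean of 2326 CPM, and the summed list ran from 0 to 32921 CPM there and from 0 to 31.6 CPM in spheroids. Alb and Hbb-bs could pass the filter only through liver libraries, so no count of calls is given for these lists. The neuroendocrine list fell in 6 of 9 tested genes in nude liver (16.3% of all genes fell) and in 4 of 9 in F1 liver (4.91%), with 1 rising (7.73%). In RPC, 6 of 10 tested neuroendocrine genes fell and 2 rose, against 11.6% and 10.3% of all genes. The part of the marker changes in the values of Wfdc2 and Sftpc was not tested. The covariate fit given above cannot separate it from the group, because the hepatocyte markers ran with liver against spheroid.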

How the data were processed

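The 10 genes, the other gene lists and the tests were chosen with earlier results of these data known. The authors deposited 1 table of expected counts (estimated read counts per gene, 10.7% of them not whole), with RSEM, Bowtie2, GRCm38 and GRCh38.p12 named in the submitters' processing notes. Roles, versions and strandedness are not given in the sources used here. Counts were rounded, ERCC rows (92) left out, and CPM computed over 31581 genes. All 199 libraries were used, and the lowest chi-squared per degree of freedom between 2 libraries of a group was 29.1, so no library was counted as a duplicate.

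Groups were compared with edgeR 4.0.16 in R 4.3.3 (TMM, filterByExpr, robust quasi-likelihood F test, the 2 groups only) and spread with limma 3.58.1 on absolute deviations of log2(CPM + 1) at a mean of at least 5 CPM, both with Benjamini-Hochberg adjustment over all genes and calls at 0.05. The fits were tested on simulated data. Alternatives were DESeq2 1.42.0, limma-voom, other scalings and filters, a replicate block, splits by ERCC and Rpl19-ps11, a hepatocyte covariate and, added after seeing the data, leaving out libraries over 10% ERCC or the highest library of a group and two-sided permutation tests (100000 resamples, smallest p 2e-05, adjusted over 28 tests). All members are named. For Wfdc2 and Nkx2-1 the rule names the 3 genes closest in group means of log2(CPM + 1), and list genes that passed a test or led a marker list. Some genes that the rule names are not reported here. Krt19, Cftr, Spp1, Sox9, Ccr7, Cd74, Lpcat1, and Foxa1 in RPC, were named after their values were seen.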

Additional observations from a re-analysis of the deposited data

Results flagged for a closer look

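The difference between F1 liver and spheroids in Sftpc was not the same in the 2 kinds of library, by the test of that difference itself. The log2 difference was 5.62 higher in 10-cell libraries than in pools (SE 1.30, adjusted p 0.00406, edgeR), with -1.68 in 10-cell libraries and -7.17 in pools. It rested on replicate 22 of the F1 10-cell libraries at 237 CPM, without which the value was 3.70 (adjusted p 0.0509).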

How the results depend on the processing

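Of 475 values of single members under the alternatives, 399 kept their direction and side of the threshold, 10 lost a call, 24 gained one and 42 changed sign. The cause was not tested. Counts of members called changed as follows. Without the filter on low counts they were 4 in nude against spheroid 10-cell libraries, 2 in F1 against spheroid, 3 between the livers, 4 in RPC, 2 in nude pools and 2 between liver pools, where the added calls of Sftpd, Sftpb, Napsa and Lamp3 rest on 1 to 5 libraries with counts. Against spheroids with at least 0.1% ERCC they were 0, 0, 0 (nude pools) and 1 (F1 pools), with fewer spheroid libraries, and with the hepatocyte covariate 0 in nude liver. DESeq2 gave 2 in F1 liver and 3 in F1 pools, and limma-voom 2 in F1 liver, 3 in RPC, 2 between livers, 2 in nude pools and 4 in F1 pools. Between the livers, F1 libraries under 200 CPM of Rpl19-ps11 gave 1. Between liver pools a filter at a mean of 5 CPM gave 1, as did leaving out libraries over 10% ERCC.

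Replicate numbers are shared between groups but pair nothing in the labels, and at most 3 same-numbered pairs of a comparison correlated above 0.1. With the replicate block the counts were 2 in F1 liver, 1 between the livers and 2 in nude pools, the added gene being Sftpc (-7.48, -5.14 and -5.58). Under the block 887 genes were called between the livers (1358 without), 1837 in F1 pools (840) and 179 between liver pools (721).

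Signs turned as follows. For Nkx2-1 they were 0.60 in nude and 0.63 in F1 liver, 1.39 in nude and 0.55 in F1 pools against spheroids with at least 0.1% ERCC, 0.0314 in nude liver by permutation, 0.31 in F1 liver with few Rpl19-ps11 counts and, between the livers, 0.0223 without filter, 0.68 with few Rpl19-ps11 counts, 0.0284 without libraries over 10% ERCC and 0.0705 without nude replicate 32. For Abca3 they were -0.0731 in nude liver against spheroids with at least 0.1% ERCC and -0.0869 without nude replicate 17. In nude pools Abca3 gave -0.19 (DESeq2), -0.58 (limma-voom), -0.60 (block) and -0.65 (permutation), in F1 pools -0.15, -2.06, -1.87 and -1.90, with -3.11 at few Rpl19-ps11 counts, and between liver pools -1.41 (limma-voom), -1.99 (block), -3.82 (few Rpl19-ps11 counts), -0.79 (without F1 replicate 10) and -1.25 (permutation). For Wfdc2 between the livers they were -0.0285 (RLE), -0.0285 (DESeq2), -0.0713 (limma-voom), -0.75 (few Rpl19-ps11 counts) and -0.45 (permutation). For Sftpc between the livers they were -0.0663 (RLE), -1.81 (DESeq2), -3.53 (limma-voom), -5.14 (block), -8.76 (few Rpl19-ps11 counts), -0.77 (hepatocyte covariate), -1.73 (without replicate 22) and -2.13 (permutation). Spread differences turned to 0.16 (Abca3, spheroids under 0.1% ERCC), -0.00599 (Nkx2-1, nude liver, effective library sizes) and -0.00904 (Nkx2-1, F1 liver, at least 200 CPM of Rpl19-ps11).

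The number of all genes called ran from 948 to 8431 in nude against spheroid 10-cell libraries, 174 to 5072 in F1 against spheroid, 302 to 6294 between the livers, 1614 to 6115 in RPC, 776 to 7888 in nude pools, 22 to 5224 in F1 pools and 179 to 5857 between liver pools. Depth limits what a 0 shows: 3 counts are up to 4.18 CPM in the shallowest library.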
